A study of Setaria viridis with 23 samples.

Results

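The genes described here are the 200 of *Setaria viridis* (green foxtail, a panicoid grass) whose mRNA level in the young inflorescence stood farthest above that of all other stages at 15 days after sowing (DAS). Levels are given as CPM, the count of a gene per 1000000 counts of its library, on a scale set by the library total alone. The mean CPM of each stage was taken for 35214 genes, of which 15326 had a 15 DAS mean of at least 5 CPM. From these, 309 genes that the study names or holds in its lists of regulators and network genes were left out, and 14 of them had a ratio at or above that of the last member. The 15017 other genes were ranked by log2 of the 15 DAS mean over the highest mean of the other 5 stages, each with 0.5 CPM added, and the first 200 were taken. The members were thus selected on their measured 15 DAS means and the means of the other stages, and their level at 15 DAS is a description that carries no test.

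Inflorescence primordia of the accession A10.1, with no mutant or treatment, were dissected at 6 stages between 10 and 18 DAS, with 4 libraries at each stage except 12 DAS, which has 3 (replicates 1, 2 and 4). Each of the 23 libraries is a pool of primordia collected in a fixed morning window, and polyadenylated RNA was sequenced. The stages follow the start of the inflorescence meristem (10 DAS), primary and secondary branching (12 DAS), higher branching (14 DAS), the first spikelet meristems and bristles (15 DAS), their differentiation (16 DAS) and floral organs (18 DAS). The libraries of 10, 12 and 14 DAS were sequenced paired-end, with only the first read of each pair analysed, and those of 15, 16 and 18 DAS single-end. Between 14 and 15 DAS, sequencing and stage therefore change together and cannot be told apart.

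Plant cells adjust to low energy through SnRK1, a kinase complex related to yeast SNF1 and animal AMPK. In Arabidopsis, SnRK1 activity, darkness and sugar shortage are tied to a shared set of transcripts, among them enzymes that break down branched-chain amino acids, the asparagine synthetase that stores nitrogen in asparagine, and the DIN (dark inducible) genes. In the grass inflorescence, 15 DAS falls where the meristem ceases to make new branches and the tips become spikelets or sterile bristles.

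The 4 libraries of 15 DAS differed widely in these genes, and replicate 2 stood apart. Summed over the 200 genes, the level at 15 DAS was 11899 CPM in replicate 1, 4949 CPM in replicate 2, 20982 CPM in replicate 3 and 32047 CPM in replicate 4, or 1.19%, 0.495%, 2.10% and 3.20% of all counts. Replicate 4 held the highest value and replicate 2 lay below 1 library of another stage at 18 DAS and 2 at 16 DAS. The sum was 4408, 3953, 4721 and 3782 CPM at 10 DAS, 2637, 3266 and 3180 CPM at 12 DAS, and 2945, 3882, 3069 and 3238 CPM at 14 DAS. At 16 DAS it was 4116, 3378, 5932 and 7642 CPM in replicates 1 to 4, and at 18 DAS 3574, 5056, 4087 and 4587 CPM. The stage means were 4216 ± 428, 3028 ± 341, 3284 ± 416, 17469 ± 11728, 5267 ± 1912 and 4326 ± 639 CPM in the order of the stages (SD, n = 4, and n = 3 at 12 DAS). Without replicate 2 the 15 DAS mean was 21643 CPM, and without replicate 4 it was 12610 CPM.

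**Figure D1:**
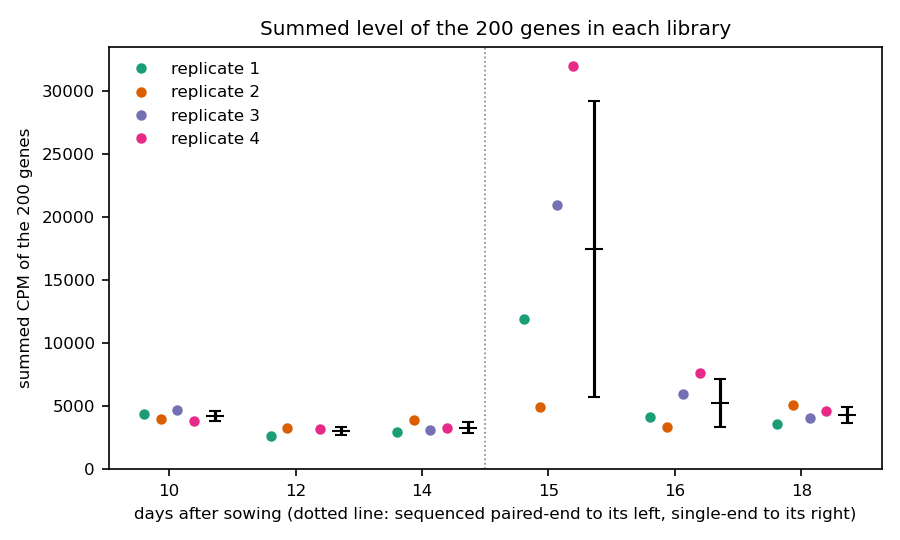
Summed CPM of the 200 genes in each of the 23 libraries by days after sowing, on a linear axis, with points coloured by replicate number and the mean ± SD of each stage beside them in black. At 15 DAS replicates 4, 3 and 1 sit at 32047, 20982 and 11899 CPM, while replicate 2, at 4949 CPM, lies among the libraries of the other stages.

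The same order of libraries ran through most members. At 15 DAS, 161 members (80.5%) were highest in replicate 4, then 3, then 1, then 2, an order held by 10.7% of the genes of at least 5 CPM. Replicate 4 was the highest library for 167 members and replicate 2 the lowest for 179. The level of replicate 4 over that of replicate 2 had a median of 6.58 across members (0.714 to 431), against 0.955 across genes of at least 5 CPM. The SD of log2(CPM + 0.5) between the 4 libraries had a median of 1.19 for members at 15 DAS and 0.49 at 16 DAS, and of 0.24 to 0.32 at the other stages. For genes of at least 5 CPM it was 0.20 at 15 DAS and 0.12 at 16 DAS. The rule ranked stage means, so a high value in any of the 15 DAS libraries could bring a gene in.

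At 16 DAS, which the rule used only through its mean, replicates 3 and 4 were both above replicates 1 and 2 for 161 members (80.5%), against 28.0% of genes of at least 5 CPM. The same split was seen for 15 members (7.50%) at 10 DAS, 29 (14.5%) at 14 DAS and 21 (10.5%) at 18 DAS, against 10.4%, 30.5% and 13.8% of genes of at least 5 CPM. At these 3 stages the share of members was thus below that of all genes, while at 15 and at 16 DAS the higher levels stood in the libraries numbered 3 and 4. Across genes, the deviations of same-numbered libraries of 16 and 15 DAS from their stage means correlated at 0.11, 0.61, 0.23 and 0.49 for replicates 1 to 4. The labels do not say what a replicate number shares between stages. In depth, replicates 1 and 2 of 15 DAS were the shallowest libraries of the series, with 8964218 and 7630744 counts, against 15543160 and 14269371 counts in replicates 3 and 4 and 12377240 to 24467495 counts at the other stages. The 16 DAS libraries had 15376836, 12377240, 13705946 and 14132718 counts in replicates 1 to 4. The part of depth in the split was not tested.

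Each library was also set against the highest mean of the other stages. Replicate 1 was above it for 199 members, replicate 2 for 63, and replicates 3 and 4 for 200 each, where the shares of genes of at least 5 CPM were 24.6%, 25.7%, 34.1% and 28.9%. The median log2 ratio was 0.90 in replicate 1, -0.48 in replicate 2, 1.60 in replicate 3 and 2.01 in replicate 4. All 4 libraries of 15 DAS lay above the 19 libraries of the other stages for 51 members (background 6.11% of genes of at least 5 CPM). Replicates 1, 3 and 4 did so for 175 members (background 9.51%). In replicate 2, 119 members lay within the range of the 16 DAS libraries, 27 below it and 54 above it. These counts describe the choice and support nothing beyond it.

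**Figure D2:**
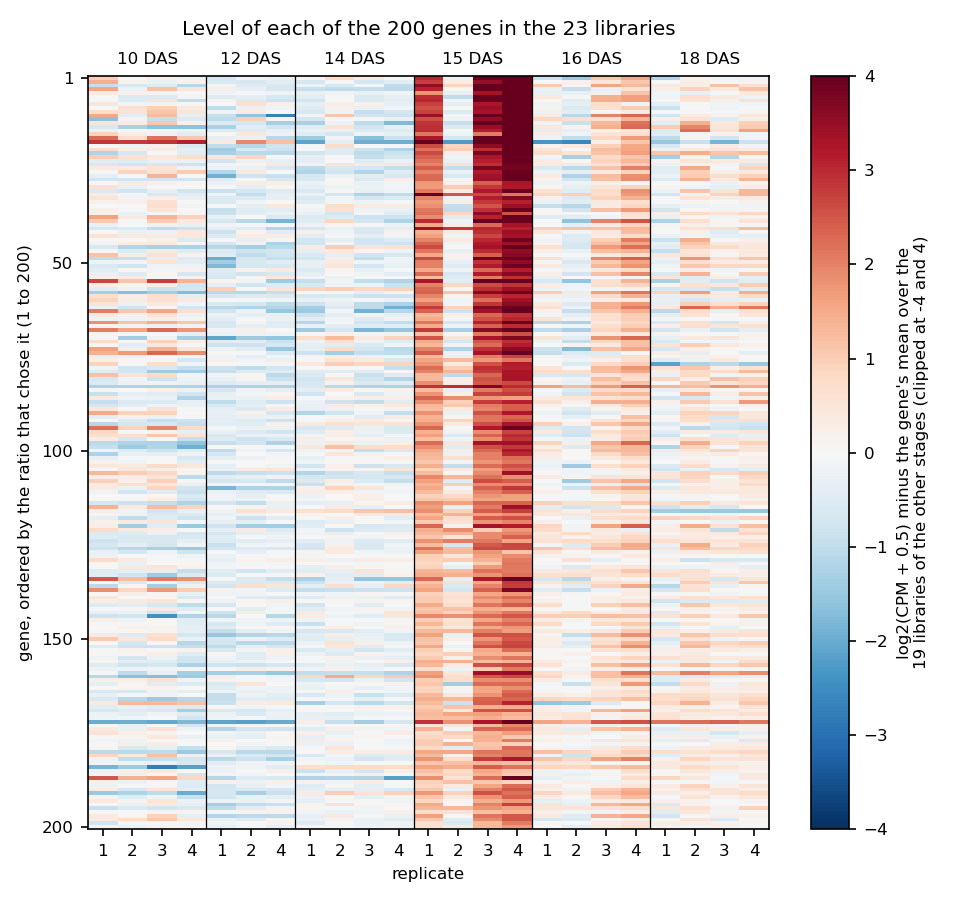
Each row is a member, ordered by the ratio that chose it, and each column a library, coloured by log2(CPM + 0.5) minus the mean of that gene over the 19 libraries of the other stages. The columns of 15 DAS replicates 1, 3 and 4 are red almost throughout, replicate 2 is pale in most rows, and 16 DAS replicates 3 and 4 are redder than 1 and 2.

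A library that had no part in the choice gives a view of these genes that the rule did not fix from 15 DAS. With replicate 1 left out, the rule chose 190 of the same genes, and 198 of the 200 chosen were above the highest other stage mean in replicate 1 itself, with a median log2 ratio of 0.89. With replicate 3 left out it kept 177, with 200 above in replicate 3 and a median of 1.57. With replicate 4 left out it kept 141, with 196 above in replicate 4 and a median of 1.61. With replicate 2 left out it kept 178, but only 43 were above in replicate 2, with a median of -0.64. The shares over all genes ranked were 24.7%, 33.8%, 28.6% and 25.8% for replicates 1, 3, 4 and 2. The high levels thus recurred in each of replicates 1, 3 and 4 when the other libraries did the choosing, and did not in replicate 2. The means of the other stages took part in each choice, so the shares over all genes, which were not so chosen, are no even comparison.

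Genes that mark the stages were summed in the same libraries. Early inflorescence meristem genes (7 named by the study) summed to 45.7, 48.2, 33.8 and 34.6 CPM in replicates 1 to 4 of 15 DAS, against 68.2 to 95.2 CPM at 14 DAS. Spikelet meristem and determinacy genes (14) summed to 1258, 1151, 1322 and 1073 CPM, and floral organ genes (14) to 97.3, 96.5, 114 and 108 CPM, where 18 DAS libraries had 301 to 444 CPM. Branch meristem genes (11) summed to 325, 317, 293 and 222 CPM. The early meristem sum was lower in replicates 3 and 4 than in 1 and 2, and the branch sum was lowest in replicate 4. The floral sum, between 96.5 and 114 CPM, was higher in replicates 3 and 4 than in 1 and 2. The spikelet sum was highest in replicate 3 and lowest in replicate 4. At most 1 gene of any of these lists was at 0 in a 15 DAS library. The study chose these lists on the same samples, and their part in the members' spread was not tested. In pooled tissue, a change in the share of a cell type and a change in RNA per cell cannot be told apart.

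The size of the excess ran over a wide range. The log2 ratio was 3.46 for the first member (10.98-fold), 1.30 at the median (2.47-fold) and 0.91 for the last (1.89-fold), with 36 members at 4-fold or more and 161 at 2-fold or more. The next highest stage was 16 DAS for 106 members, 10 DAS for 45, 18 DAS for 38, 14 DAS for 7 and 12 DAS for 4. The 15 DAS mean of members ran between 5.01 and 1891 CPM, with a median of 33.7 CPM. The last members inside the threshold were Sevir.5G097600, Sevir.3G280800 and Sevir.8G121700 with ratios of 0.92, 0.92 and 0.91, and the first outside it were Sevir.7G217500, Sevir.1G251000 and Sevir.5G018800 with 0.91 each.

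Names come from the descriptions in the study's supplementary tables, which pair an identifier with its closest Arabidopsis and rice genes. The copies used here are partial, cover 2976 genes and start with particular expression clusters, so the counts by function are no share of a pathway. They hold 141 members, of which 98 have a description and 43 none, and 59 members are not in them. The ranked genes with a description number 1063 in the copies. Keywords placed 8 of the 98 members with ubiquitin ligases and F-box proteins, where 61 of the 1063 fall, 8 with oxidases and related enzymes (44 of the 1063), and 6 with kinases and receptors (93). A further 6 fell with glycosyl enzymes (53), 5 with transporters (32) and 3 with hormones (17), and 0 with transposable elements (12), RNA processing (33) or chromatin (24). No class was tested. The closer groups below hold 50 members, and both they and the words searched for them were set after the values were seen. Members are also more frequent among the described genes (98 of 1063) than among all genes ranked (200 of 15017). A count of members among the matching genes of a group is therefore high in part by construction, and does not show a whole pathway.

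Enzymes that break down leucine, isoleucine and valine formed the largest such group. It holds 8 members, with log2 ratios of 1.02 to 2.29, and all 8 followed the order 4, 3, 1, 2 at 15 DAS. In the copies, 9 genes of at least 5 CPM match the words searched, and the ninth, Sevir.9G286700 (electron transfer flavoprotein alpha), had a ratio of 0.80 and lay just outside the threshold of the rule. The 8 genes summed to 807, 325, 1421 and 2447 CPM in replicates 1 to 4 of 15 DAS, and to 382, 320.0, 449.95 and 553 CPM in those of 16 DAS. The first step after transamination is the branched-chain keto acid dehydrogenase complex, of which 3 subunits were in the group.

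The E1 alpha subunit Sevir.7G291700 had 9.65, 14.0, 23.6 and 17.0 CPM at 10 DAS, 9.10, 10.6 and 10.6 CPM at 12 DAS, and 13.6, 16.0, 11.1 and 12.3 CPM at 14 DAS. It had 146, 27.9, 326 and 575 CPM at 15 DAS, 39.7, 32.6, 51.6 and 72.1 CPM at 16 DAS, and 50.8, 62.0, 50.0 and 54.9 CPM at 18 DAS. Replicates 1, 3 and 4 of 15 DAS were above all other libraries, replicate 2 was below every library of 16 and 18 DAS, and all 8 libraries of 16 and 18 DAS were above all of 10 to 14 DAS. The gene was higher at 16 than at 14 DAS by 1.86 ± 0.50 on the log2 scale (SE, edgeR adjusted p = 0.0052). The E1 beta subunit Sevir.2G050300 had 42.2, 14.0, 72.9 and 117 CPM at 15 DAS, and between 13.0 and 29.1 CPM in the 19 other libraries. The E2 acyltransferase Sevir.5G020400, homolog of Arabidopsis BCE2, also named DIN3, had 101, 37.2, 211 and 296 CPM at 15 DAS, and 24.7 to 71.4 CPM elsewhere. In both, replicate 2 lay inside the range of the other stages.

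Both subunits of 3-methylcrotonyl-CoA carboxylase, a later enzyme of leucine breakdown, were members. The alpha subunit Sevir.3G398800 (MCCA) had 95.8, 17.3, 184 and 376 CPM at 15 DAS and 26.7, 22.1, 40.3 and 53.2 CPM at 16 DAS, where all other libraries held 11.9 to 29.4 CPM. The beta subunit Sevir.6G157100 (MCCB) had 106, 35.1, 171 and 341 CPM at 15 DAS, and 17.5 to 95.7 CPM elsewhere. Replicate 2 again lay among the other stages for both. Methylmalonate-semialdehyde dehydrogenase, Sevir.2G069800, which serves valine, had 162, 85.7, 205 and 419 CPM at 15 DAS against 83.4 to 119.8 CPM elsewhere.

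Members of this group also pass electrons to the respiratory chain. The ubiquinone oxidoreductase ETFQO, Sevir.9G191600, had 53.9, 36.6, 92.0 and 132 CPM at 15 DAS, and 15.6 to 43.8 CPM in the other libraries. Sevir.2G065400, a D-2-hydroxyglutarate dehydrogenase that in Arabidopsis feeds the same electron carrier, had 99.6, 71.4, 159.7 and 191 CPM at 15 DAS, and 43.4 to 67.6 CPM elsewhere. It was the only member of the 8 whose 15 DAS libraries all lay above the other 19, replicate 2 included.

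Genes that move nitrogen between amino acids gave 3 members, at ranks 14, 52 and 67 of the 200. The asparagine synthetase Sevir.3G250200, homolog of Arabidopsis ASN1 (DIN6), had 115, 9.96, 169 and 579 CPM at 15 DAS. At 16 DAS it had 19.9, 16.3, 40.1 and 73.6 CPM, at 18 DAS 30.0, 58.6, 20.9 and 31.0 CPM, and at 10, 12 and 14 DAS 4.34 to 22.1 CPM. Replicate 4 of 15 DAS held the highest level, and replicate 2 was below every library of 16 and 18 DAS. The alanine:glyoxylate aminotransferase homolog Sevir.9G528100 (AGT2) had 144, 43.8, 240.1 and 444 CPM at 15 DAS against 34.3 to 87.6 CPM elsewhere, and the amino acid transporter Sevir.1G054000 had 44.4, 13.8, 82.1 and 126 CPM against 10.1 to 31.6 CPM. In the copies, 9 genes of at least 5 CPM match the words for these roles, and the 6 that are not members had log2 ratios of -0.93 to 0.86.

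A loose group headed by homologs of dark-induced and senescence-linked genes held 5 places, of 17 genes of at least 5 CPM in the copies that match the words searched. Of the other 12, of which the rule left out 2, 9 had a log2 ratio below 0, and they ranged between -1.34 and 2.55. The descriptions of the members Sevir.3G015100 and Sevir.1G001800 name neither darkness nor senescence. Sevir.3G015100 alone held 2723 of the 3457 CPM of the group in replicate 4 of 15 DAS. Sevir.4G296300, a rhodanese-like protein whose Arabidopsis homolog is SEN1 (DIN1), had 79.1, 13.5, 144 and 318 CPM at 15 DAS, and 6.23 to 27.5 CPM in all other libraries. Sevir.1G001800, the homolog of sulfurtransferase STR18, had 10.8, 4.46, 19.04 and 60.9 CPM at 15 DAS, 3.06, 2.02, 5.47 and 7.08 CPM at 16 DAS, and 2.05, 1.30, 0.874 and 0.566 CPM at 14 DAS. It was higher at 16 than at 14 DAS by 1.84 ± 0.62 (log2, SE, edgeR adjusted p = 0.021). Its annotated neighbour by number, Sevir.1G001900, is also described as STR18 and had a ratio of -1.31, so the description alone did not mark a member.

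Sevir.3G015100, a TSJT1-like protein of unknown activity, was the second most abundant member, with 721, 81.4, 1253 and 2723 CPM at 15 DAS. It had 159, 98.2, 379.8 and 541 CPM at 16 DAS and 87.7 to 261 CPM in the libraries of the other stages. Replicate 2 of 15 DAS was the lowest of all 23 libraries for this gene. The auxin-repressed, dormancy-type protein Sevir.2G225500 had 13.7, 1.83, 22.1 and 43.0 CPM at 15 DAS, 2.32, 4.05, 2.75 and 3.06 CPM at 14 DAS, and 0.940, 0.497, 0.422 and 0.448 CPM at 10 DAS. It was higher at 14 than at 10 DAS by 2.33 ± 0.74 (log2, SE, edgeR adjusted p = 0.014).

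Sevir.1G174600, a glycerophosphodiester phosphodiesterase described as senescence-related gene 3, had a high level at 10 DAS as well. It had 69.2, 10.4, 128 and 313 CPM at 15 DAS, 6.84, 4.57, 6.24 and 5.83 CPM at 14 DAS, 12.8, 11.7 and 8.29 CPM at 12 DAS, and 34.2, 41.6, 62.2 and 46.3 CPM at 10 DAS. The 10 DAS libraries did not overlap those of 12 or 14 DAS. Its log2 change was -2.07 ± 0.58 at 12 against 10 DAS (SE, edgeR adjusted p = 0.018) and -2.99 ± 0.55 at 14 against 10 DAS (adjusted p = 0.00016).

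Genes for raffinose sugars, starch and sugar transport gave 6 members, of 7 genes of at least 5 CPM in the copies that match the words searched. Sevir.6G202600, homolog of Arabidopsis SIP1 (seed imbibition), had 65.6, 6.16, 96.6 and 272 CPM at 15 DAS. It had 5.92, 8.11, 4.80 and 5.43 CPM at 14 DAS, 15.6, 14.0, 21.0 and 13.5 CPM at 10 DAS, and 6.79 to 12.0 CPM at 12, 16 and 18 DAS. It was lower at 14 than at 10 DAS, with a log2 change of -1.40 ± 0.56 (SE, edgeR adjusted p = 0.047), while replicate 2 of 15 DAS lay within the 14 DAS range. Its paralog Sevir.7G148900 (SIP2), described as a galactinol-sucrose galactosyltransferase, had 152, 43.0, 307 and 482 CPM at 15 DAS against 32.9 to 80.5 CPM elsewhere.

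The alpha-galactosidase Sevir.9G206900, an enzyme that removes galactose from such sugars, had 27.3, 11.1, 65.9 and 76.7 CPM at 15 DAS. It had 10.3, 6.30, 15.9 and 22.9 CPM at 16 DAS, 4.85, 4.99, 3.62 and 5.21 CPM at 14 DAS, and 1.63, 1.14, 1.57 and 1.09 CPM at 10 DAS. The enzyme rose at 14 against 10 DAS by 1.76 ± 0.52 (log2, SE, edgeR adjusted p = 0.0092) and at 16 against 14 DAS by 1.55 ± 0.44 (adjusted p = 0.0070). The inactive beta-amylase 9-like gene Sevir.9G407700 had 73.1, 15.1, 123 and 204 CPM at 15 DAS, and was higher at 16 DAS (21.7, 11.1, 43.5 and 55.2 CPM) than at 14 DAS (8.99, 12.3, 7.86 and 6.72 CPM) by 1.85 ± 0.52 (adjusted p = 0.0067). In its 16 DAS libraries replicate 2 overlapped the 14 DAS range.

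The other beta-amylase, Sevir.2G353100, and the ERD6-like sugar transporter Sevir.9G398400 had small but tight excesses. Sevir.2G353100 had 10.7, 9.83, 15.1 and 17.4 CPM at 15 DAS against 4.40 to 8.70 CPM elsewhere. Sevir.9G398400 had 29.5, 34.9, 32.8 and 28.5 CPM against 10.8 to 18.8 CPM. In both, all 15 DAS libraries lay above the other 19, and for the transporter replicate 2 was the highest.

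Subunits of SnRK1 itself were among the members, and with the DUF581 proteins they make 5 of 9 matching genes of at least 5 CPM in the copies, the other 4 with log2 ratios of -0.83 to 0.82. The beta subunit Sevir.3G200700 had 197, 38.9, 363 and 588 CPM at 15 DAS, 53.0, 31.6, 101 and 148 CPM at 16 DAS, and 18.5 to 78.6 CPM in the libraries of the other stages. The gamma subunit Sevir.7G076700 (KING1) had 59.0, 28.2, 90.9 and 149 CPM at 15 DAS against 19.2 to 53.1 CPM elsewhere. The catalytic alpha subunit Sevir.9G445900 (AKIN10) had a ratio of 0.82 and was not a member. The gamma-like gene Sevir.1G079100 had 1.99, 3.38, 2.31 and 3.28 CPM at 14 DAS, 0.704, 0.302 and 0.577 CPM at 12 DAS, and 0.204, 0.348, 0.483 and 0 CPM at 10 DAS. This gene rose at 14 against 12 DAS by 2.30 ± 0.46 on the log2 scale (SE, edgeR adjusted p = 0.0040) and had 6.14, 3.28, 11.1 and 8.69 CPM at 15 DAS. A count of 0 in that 10 DAS library allows a level of up to 0.192 CPM, the level of 3 counts, for counting error only.

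Proteins with a DUF581 domain, which in Arabidopsis bind SnRK1, gave 2 members. Sevir.1G219600 had 23.3, 3.01, 38.2 and 72.2 CPM at 15 DAS and 2.59 to 11.5 CPM elsewhere, with replicate 2 near the lower end of the other stages. Sevir.4G291400 had 5.24, 5.37, 7.98 and 8.27 CPM at 15 DAS, above all other libraries (0.896 to 3.58 CPM). It was higher at 16 DAS, with 2.34, 3.47, 2.19 and 2.90 CPM, than at 14 DAS, with 1.56, 1.30, 1.68 and 2.09 CPM, by 0.69 ± 0.23 (log2, SE, edgeR adjusted p = 0.020).

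Among the genes described as OXS3-like, a family named for oxidative stress tolerance in Arabidopsis, 4 of the 5 in the copies at 5 CPM or more were members. Sevir.7G224000 had 101, 8.26, 204 and 334 CPM at 15 DAS, 11.4, 3.80, 36.7 and 46.7 CPM at 16 DAS, and 0.945 to 27.01 CPM in the other libraries. Sevir.1G280200 had 41.3, 3.93, 78.2 and 128 CPM at 15 DAS and 5.33, 2.67, 23.3 and 30.2 CPM at 16 DAS. In both genes replicates 3 and 4 stood above 1 and 2 at either stage. Sevir.5G314200 and Sevir.3G177500 had ratios of 0.96 and 0.92. Of these, Sevir.3G177500 fell at 12 against 10 DAS, a log2 change of -1.44 ± 0.46 (SE, edgeR adjusted p = 0.039), with 8.72, 9.51 and 9.50 CPM at 12 DAS against 25.7, 21.3, 38.7 and 15.5 CPM at 10 DAS. The fifth gene, Sevir.1G030700, had a ratio of 0.15.

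**Figure D3:**
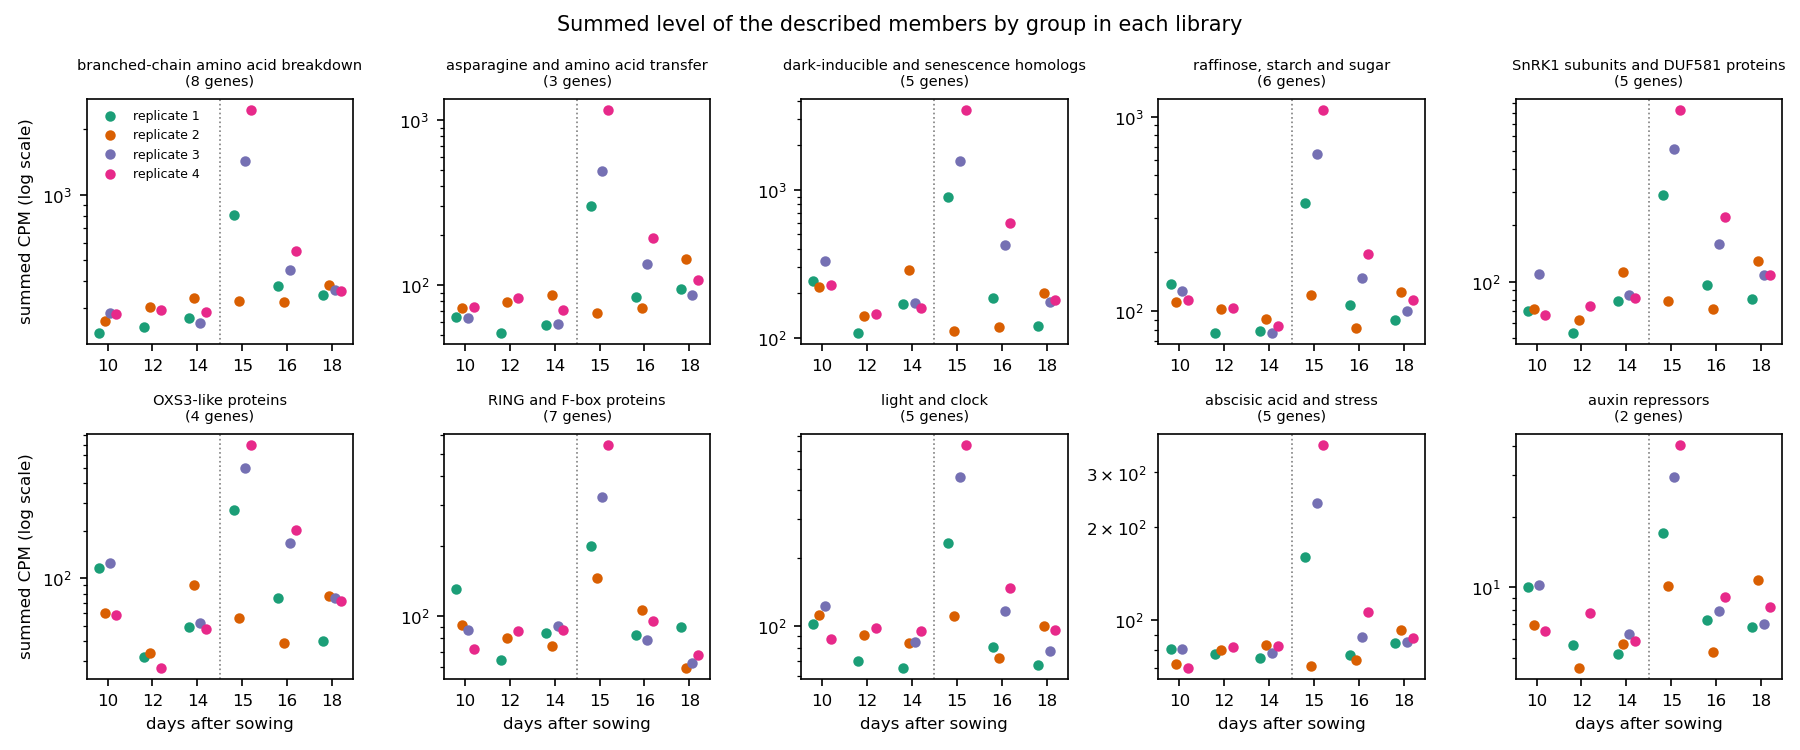
Summed CPM, on log axes, of the members in each of the 10 groups named by description, by days after sowing, with points coloured by replicate number and a dotted line where paired-end sequencing gives way to single-end. In every group replicate 4 of 15 DAS is the highest library and replicate 2 the lowest of that stage, as for the 8 genes of branched-chain amino acid breakdown at 2447 against 325 CPM.

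The group of RING and F-box proteins, which mark others for degradation, holds 7 members. In the copies, 37 genes of at least 5 CPM match the words searched, and 8 of these were members. The other 29 had log2 ratios of -1.05 to 0.91, and 18 of them were below 0. Sevir.6G029200, a RING ubiquitin ligase like Arabidopsis SDIR1, which acts in abscisic acid signalling, had 15.3, 1.44, 32.9 and 63.9 CPM at 15 DAS. It had 0.485, 0.416, 0.437 and 0.396 CPM at 14 DAS and 5.03, 1.09, 3.68 and 2.11 CPM at 10 DAS, groups that did not overlap, and was lower at 14 than at 10 DAS, with a log2 change of -2.77 ± 0.82 (SE, edgeR adjusted p = 0.0089). The RING protein Sevir.2G160700 had 30.1, 2.75, 63.8 and 118 CPM at 15 DAS and 1.41 to 11.3 CPM elsewhere. The kelch F-box gene Sevir.4G238100 had 1.56, 0, 5.60 and 14.6 CPM at 15 DAS and at most 0.849 CPM in any other library. Its count of 0 in replicate 2 allows up to 0.393 CPM. The CHY-type RING gene Sevir.5G301100 differed from these, with 110.3, 122, 156 and 255 CPM at 15 DAS, all above the other libraries (33.2 to 101 CPM).

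Genes of light perception and the clock gave 5 members of 6 matching genes in the copies, all 5 in the order 4, 3, 1, 2. Sevir.5G130800, like the Arabidopsis blue light protein of the TWIN LOV type, had 91.8, 33.3, 200.2 and 245 CPM at 15 DAS, against 18.7 to 43.9 CPM elsewhere. The pseudo-response regulator Sevir.2G456400 (PRR37-like), part of the clock in grasses, had 67.0, 46.4, 113 and 171 CPM against 19.9 to 49.4 CPM, and the light-regulated Sevir.5G066700 had 63.5, 28.6, 123 and 188 CPM against 13.9 to 50.0 CPM. For all 3, replicate 2 lay inside the range of the other stages. The F-box gene Sevir.5G356000 (EID1-like 3) was higher at 16 DAS (1.50, 0.889, 2.41 and 3.96 CPM) than at 14 DAS (0.592, 0.624, 0.437 and 0.453 CPM) by 2.02 ± 0.56 (log2, SE, edgeR adjusted p = 0.0061). Sevir.9G520300, homolog of COR27, a cold- and light-regulated clock gene of Arabidopsis, was higher at 16 than at 14 DAS by 2.42 ± 0.83 (adjusted p = 0.024), with replicates 3 and 4 of 16 DAS at 2.04 and 4.88 CPM and replicates 1 and 2 at 0.650 and 0.404 CPM. All primordia were collected in the same morning window, and the part of the hour of collection was not tested.

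Genes linked to abscisic acid and stress gave 5 members, with log2 ratios of 0.92 to 1.69, of 14 matching genes of at least 5 CPM in the copies. The other 9, of which the rule left out 1, ranged between -1.94 and 0.46, and 7 of them were below 0. Sevir.9G494800, homolog of AFP1 and AFP2, repressors of abscisic acid responses in Arabidopsis, had 82.7, 36.0, 133 and 169.9 CPM at 15 DAS against 28.7 to 52.6 CPM elsewhere. The late embryogenesis abundant gene Sevir.6G133200 had 5.58, 0.786, 9.01 and 12.5 CPM at 15 DAS, 0.585, 0.646, 0.657 and 0.920 CPM at 16 DAS, and 1.78, 1.92, 1.68 and 1.87 CPM at 14 DAS. It was the only member called lower at 16 than at 14 DAS, a call lost when any of 7 of the 8 libraries of these stages was left out, with a log2 change of -1.38 ± 0.52 (SE, edgeR adjusted p = 0.036). Its levels at these stages did not overlap. The heat stress factor Sevir.1G181200 (HSFA3) had 3.79, 0.262, 9.15 and 9.35 CPM at 15 DAS. The Aux/IAA repressors of auxin signalling Sevir.7G068000 and Sevir.6G117400 had ratios of 1.37 and 1.09, and the other 3 of the 5 matching genes had -0.49 to -0.36.

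**Figure D4:**
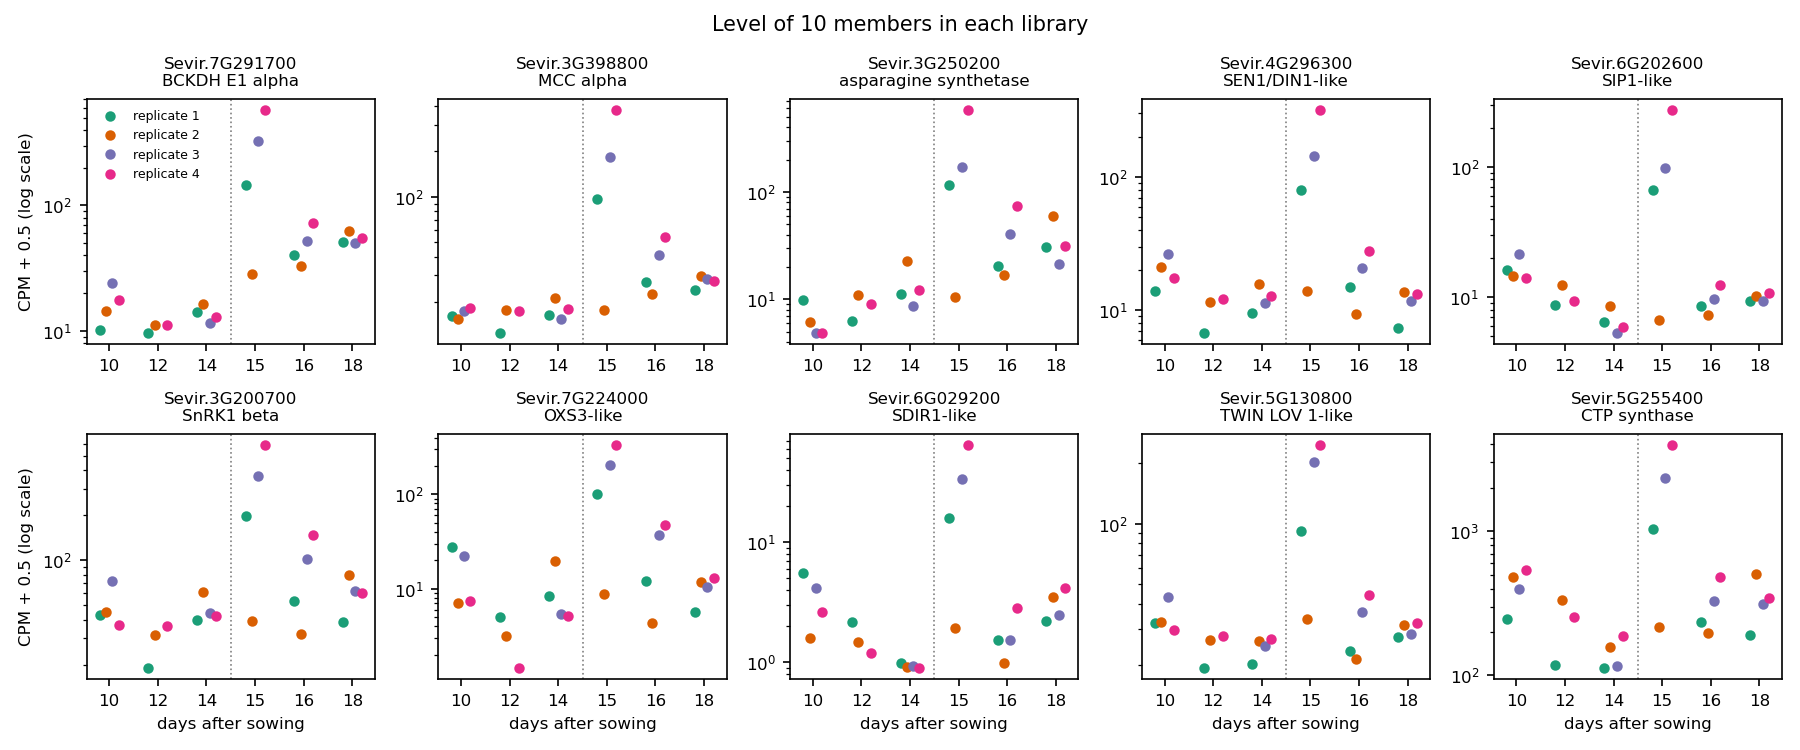
Level of 10 members in each of the 23 libraries, as CPM + 0.5 on log axes, by days after sowing, with points coloured by replicate number and a dotted line between libraries sequenced paired-end and single-end. In each panel replicates 4, 3 and 1 of 15 DAS stand above the rest of the series, as for asparagine synthetase at 579, 169 and 115 CPM, and replicate 2, at 9.96 CPM for this gene, falls among the other stages.

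The member of the largest ratio, Sevir.9G258700, has no description. It had 28.3, 2.49, 67.9 and 129.9 CPM at 15 DAS and 1.43, 0.808, 7.004 and 9.76 CPM at 16 DAS, where the other stages held 1.06 to 6.33 CPM. The second, Sevir.2G098500, had 11.9, 1.70, 20.1 and 69.7 CPM at 15 DAS and 0.624 to 4.54 CPM elsewhere. The third, the AWPM-19-like membrane protein Sevir.9G229900, had 14.2, 1.83, 22.1 and 57.7 CPM at 15 DAS. It was higher at 16 DAS (2.08, 0.808, 3.21 and 2.55 CPM) than at 14 DAS (0.592, 0.312, 0.686 and 0.113 CPM) by 2.33 ± 0.79 (log2, SE, edgeR adjusted p = 0.023). Sevir.9G163600, also with no description, had 7.36, 0, 16.7 and 36.6 CPM at 15 DAS, and Sevir.5G438500 had 3.79, 0, 5.73 and 12.8 CPM. Replicate 2 was at 0 counts for these 2 genes as for the kelch F-box gene.

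Enzymes of central metabolism stood among the leading described members as well. The transketolase-like Sevir.5G386700, an enzyme of the pentose phosphate pathway, had 13.2, 1.57, 26.5 and 62.7 CPM at 15 DAS and 0.245 to 5.45 CPM elsewhere. Sevir.3G232600, of the inositol monophosphatase family, had 5.80, 0.786, 5.47 and 25.2 CPM, so that replicate 4 alone set it apart from replicates 1 and 3. The glyoxalase Sevir.3G104900 had 83.1, 14.0, 154 and 253 CPM. The WAT1-related transporter Sevir.4G286600 had 101, 21.8, 223 and 326 CPM at 15 DAS and 15.5 to 66.5 CPM elsewhere, the tetratricopeptide repeat gene Sevir.9G132400 had 39.5, 13.1, 62.3 and 115 CPM and 9.48 to 14.6 CPM elsewhere, and the calcium-binding EF-hand gene Sevir.9G372700 had 3.68, 0.393, 8.43 and 13.5 CPM and at most 2.62 CPM elsewhere. Replicate 2 lay within the range of the other stages for all 3. The carotenoid cleavage dioxygenase Sevir.2G180600 (CCD1) had 25.5, 9.17, 49.6 and 93.6 CPM, and was higher at 14 DAS (6.89, 9.15, 7.92 and 8.43 CPM) than at 10 DAS (3.64, 3.23, 3.68 and 3.07 CPM) by 1.24 ± 0.42 (log2, SE, edgeR adjusted p = 0.021).

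The most abundant member was Sevir.5G255400, a CTP synthase, which makes CTP for nucleic acid and lipid synthesis. It had 1037, 214, 2344 and 3969 CPM at 15 DAS, 112, 157, 116 and 187 CPM at 14 DAS, and 247, 480.4, 395 and 539 CPM at 10 DAS. Its log2 change at 14 against 10 DAS was -1.57 ± 0.53 (SE, edgeR adjusted p = 0.020), with no overlap. Sevir.4G252300, with no description, was the fourth most abundant. It had 256, 2.23, 522 and 1176 CPM at 15 DAS, 2.53, 9.72, 2.87 and 2.83 CPM at 14 DAS, 15.9, 48.5 and 29.7 CPM at 12 DAS, and 92.9, 90.8, 93.8 and 108 CPM at 10 DAS. It fell at 14 against 10 DAS, a log2 change of -4.42 ± 0.96 (adjusted p = 0.00078), and replicate 2 of 15 DAS was below every 14 DAS library.

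Sevir.8G026000, also abundant and without a description, had 266, 52.1, 502 and 829 CPM at 15 DAS, 51.0, 47.3 and 47.0 CPM at 12 DAS, and 249, 101, 211 and 92.5 CPM at 10 DAS. It fell at 12 against 10 DAS, a log2 change of -1.73 ± 0.54 (SE, edgeR adjusted p = 0.034). Sevir.6G048000 behaved otherwise. It had 648, 784, 806 and 559.6 CPM at 15 DAS, 287, 329, 304 and 348 CPM at 16 DAS, 309, 268, 277 and 279.6 CPM at 18 DAS, and 137, 160.0, 129 and 140.0 CPM at 14 DAS. Its 15 DAS libraries all lay above the rest, replicate 4 was the lowest of them, and the libraries of 16 DAS were all above those of 14 DAS, by 1.14 ± 0.12 (adjusted p = 3.0e-07).

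Sevir.6G048000 belongs to the 51 members whose 15 DAS libraries all lay above the 19 others. Among these 51, the median SD of log2(CPM + 0.5) between the 15 DAS libraries was 0.35, against 1.40 among the other 149, and the median log2 ratio was 1.09, against 1.44. The order 4, 3, 1, 2 was held by 18 of the 51 and by 143 of the 149. The ratio of replicate 4 over replicate 2 had a median of 1.54 in the 51 and 10.2 in the 149. Cut in this way, the smaller set had a moderate median excess shared by 4 libraries, though Sevir.9G476000 in it had a log2 ratio of 2.09. The larger set had a steeper median excess, with replicate 2, and for some members replicate 1, not above the 19 others. This split was made from the same 15 DAS values that chose the members, and is a description.

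The widest gap between the lowest 15 DAS library and the highest of the others was that of Sevir.2G398600, described as a transmembrane receptor family protein, at 3.05-fold. It had 19.6, 13.4, 15.8 and 16.0 CPM at 15 DAS, 3.33, 3.88, 3.88 and 4.40 CPM at 16 DAS and 0.706, 1.09, 0.811 and 1.02 CPM at 14 DAS. It was higher at 16 than at 14 DAS by 2.06 ± 0.28 (log2, SE, edgeR adjusted p = 6.1e-06). The mitochondrial ribosomal protein L27 homolog Sevir.3G406600 had 69.8, 89.8, 72.7 and 64.0 CPM at 15 DAS against 27.7 to 41.5 CPM elsewhere, and Sevir.3G265500 had 10.9, 11.01, 9.52 and 10.2 CPM against 2.05 to 6.44 CPM. These genes, picked after their values were seen, show the tight form of the pattern.

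By the numbers in their identifiers, which follow chromosome position, 38 members lay in 18 runs of neighbours. Neighbours here are members of the same chromosome whose numbers differ by at most 500, so other genes can lie between them. How many such runs arise among genes ranked at large was not tested. The longest were Sevir.5G438500, Sevir.5G438800 and Sevir.5G438900 on chromosome 5, and Sevir.9G227500, Sevir.9G227600 and Sevir.9G227700 on chromosome 9, none of which has a description of its role. At 15 DAS, Sevir.5G438800 had 16.1, 8.13, 23.9 and 29.4 CPM and Sevir.5G438900 had 28.9, 10.6, 50.4 and 77.4 CPM, the first with replicate 2 below the highest 14 DAS library and the second with replicate 2 within the 10 DAS range. Both fell at 18 against 16 DAS. Sevir.5G438800 had 1.21, 1.09, 1.13 and 1.07 CPM at 18 DAS against 6.11, 4.77, 7.22 and 7.85 CPM at 16 DAS, a log2 change of -2.53 ± 0.35 (SE, edgeR adjusted p = 1.1e-05). Sevir.5G438900 had 1.49, 3.08, 3.69 and 2.57 CPM at 18 DAS against 8.58, 5.41, 14.2 and 16.7 CPM at 16 DAS, a log2 change of -2.06 ± 0.46 (adjusted p = 0.0014).

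On chromosome 9, Sevir.9G227500 had 58.9, 3.80, 152 and 210.1 CPM at 15 DAS, Sevir.9G227600 had 13.7, 1.97, 25.3 and 29.9 CPM, and Sevir.9G227700 had 8.70, 0.393, 23.2 and 24.2 CPM. All 3 were higher at 16 than at 14 DAS, by 2.16 ± 0.75, 1.66 ± 0.59 and 2.48 ± 0.89 on the log2 scale (SE, edgeR adjusted p = 0.026, 0.028 and 0.030). In each of them replicates 3 and 4 of 16 DAS stood above every 14 DAS library and replicate 2 did not. Neighbours may be copies of each other, and reads shared between near-identical copies could have been divided between them. Of the pair on chromosome 2, Sevir.2G098400, described as a tRNA-specific adenosine deaminase, had 36.7, 13.9, 66.9 and 158 CPM at 15 DAS and was lower at 14 than at 10 DAS, with a log2 change of -1.24 ± 0.43 (adjusted p = 0.025). By chromosome, the share of members ran between 20.5% on chromosome 9, which holds 18.8% of the genes ranked, and 1.50% on chromosome 8, which holds 4.73%.

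The stages other than 15 DAS were compared by edgeR's quasi-likelihood test over 21180 genes (Benjamini-Hochberg adjusted p under 0.05), which asks how the members moved outside the peak. The means of these stages took part in the choice, through the highest of them. A gene with a high mean at any of them was thus less likely to be a member. The shares of members and of all genes tested are therefore no even comparison. All 200 members were among the genes tested, and 197 would have passed the filter on low counts without the 15 DAS libraries. The model shares its estimate of the spread over all stages, so the wide 15 DAS values widen it for members. The fit was therefore repeated without the 15 DAS libraries, a choice made after the data were seen, with 197 members among 20924 genes.

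From 14 to 16 DAS, on either side of the peak, members moved up. Of the 200, 55 (27.5%) were higher at 16 DAS (background 19.7% of genes tested) and 1 was lower (background 20.7%). The median log2 fold change was 0.74 over members and -0.01 over all genes. Without the 15 DAS libraries, 102 of 197 (51.8%) were higher (background 22.1%) and 1 was lower (background 22.4%). Without 16 DAS replicate 4 the fit to all stages called 34 of the 200 higher. That share was close to the background, 3441 of 21164 genes tested. The median log2 fold change was then 0.45 over members and -0.01 over all genes, and 1 member was lower, against 3519 genes. Sequencing changes between these stages as well, and its part cannot be told apart from that of stage. Among the 55 were 18 of the 51 members with 4 high libraries and 37 of the 149 others (background 19.7% of genes tested). These sets were cut on 15 DAS values, whose spread also enters the fit to all stages.

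The largest change of this comparison was that of Sevir.4G084400, chosen after its values were seen, which has no description. It had 3.19, 2.34, 3.28 and 5.52 CPM at 16 DAS, against 0.269, 0.0520, 0 and 0 CPM at 14 DAS, and 0 in all 7 libraries of 10 and 12 DAS. It had 8.14, 8.52, 15.4 and 8.83 CPM at 15 DAS, with no library apart. At 18 DAS it had 2.48, 2.23, 3.62 and 2.65 CPM. The libraries sequenced paired-end thus held at most 0.269 CPM and those sequenced single-end at least 2.23 CPM.

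From 16 to 18 DAS, within the single-end libraries, few members were called. Of the 200, 12 (6.00%) were lower at 18 DAS (background 16.3%) and 3 (1.50%) were higher (background 20.2%). The median log2 fold change was -0.28 over members and -0.0044 over all genes. The 16 DAS libraries differed more in members (median SD of log2 CPM 0.49) than in genes of at least 5 CPM (0.12), so few calls need not mean little change. Without the 15 DAS libraries, 29 of 197 (14.7%) were lower (background 20.6%) and 4 were higher (background 20.9%). The 3 higher members were Sevir.5G326500, Sevir.9G570200 and Sevir.3G406600, chosen here for that call. Sevir.5G326500 had 11.1, 16.2, 7.46 and 13.1 CPM at 18 DAS against 1.63, 1.86, 3.79 and 5.80 CPM at 16 DAS, a log2 change of 1.87 ± 0.55 (SE, edgeR adjusted p = 0.011). The count of higher members was 1 without 16 DAS replicate 4 and 1 without 18 DAS replicate 4.

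Before the peak, and within the paired-end libraries, the direction of the calls differed between comparisons. At 14 against 10 DAS, 25 (12.5%) were higher (background 20.7%) and 29 (14.5%) were lower (background 21.5%), both shares below the background. Without the 15 DAS libraries, 32 were higher and 52 (26.4%) lower of 197 (background 21.6% and 24.3%). At 12 against 10 DAS, 3 were higher (background 6.61%) and 9 lower (background 7.75%), and without the 15 DAS libraries 5 were higher (background 7.67%) and 43 (21.8%) lower (background 9.86%). At 14 against 12 DAS, 5 were higher (background 2.31%) and 0 lower (background 2.96%) in edgeR, with DESeq2 calling 9 and 0, and 25 members in either direction had an unadjusted edgeR p under 0.05. Without 12 DAS replicates 1, 2 and 4 in turn, 3, 3 and 2 were higher. Without the 15 DAS libraries the counts were 10 and 3 (background 3.15% and 4.10%).

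The comparisons with 12 DAS rest on 3 libraries of that stage. At 12 against 10 DAS the count of lower members was 4, 4 and 15 without 10 DAS replicates 1, 3 and 4, and 3, 3 and 2 without 12 DAS replicates 1, 2 and 4. A member that climbed at each early step was Sevir.9G122100, chosen after its values were seen. It had 10.8, 11.5, 11.9 and 11.5 CPM at 14 DAS, 5.58, 5.96 and 4.67 CPM at 12 DAS, and 1.47, 2.14, 0.543 and 1.09 CPM at 10 DAS. Its log2 change was 2.01 ± 0.28 at 12 against 10 DAS (SE, edgeR adjusted p = 3.1e-05) and 1.07 ± 0.24 at 14 against 12 DAS (adjusted p = 0.0098), and it had 21.0, 18.7, 37.1 and 31.3 CPM at 15 DAS.

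**Figure D5:**
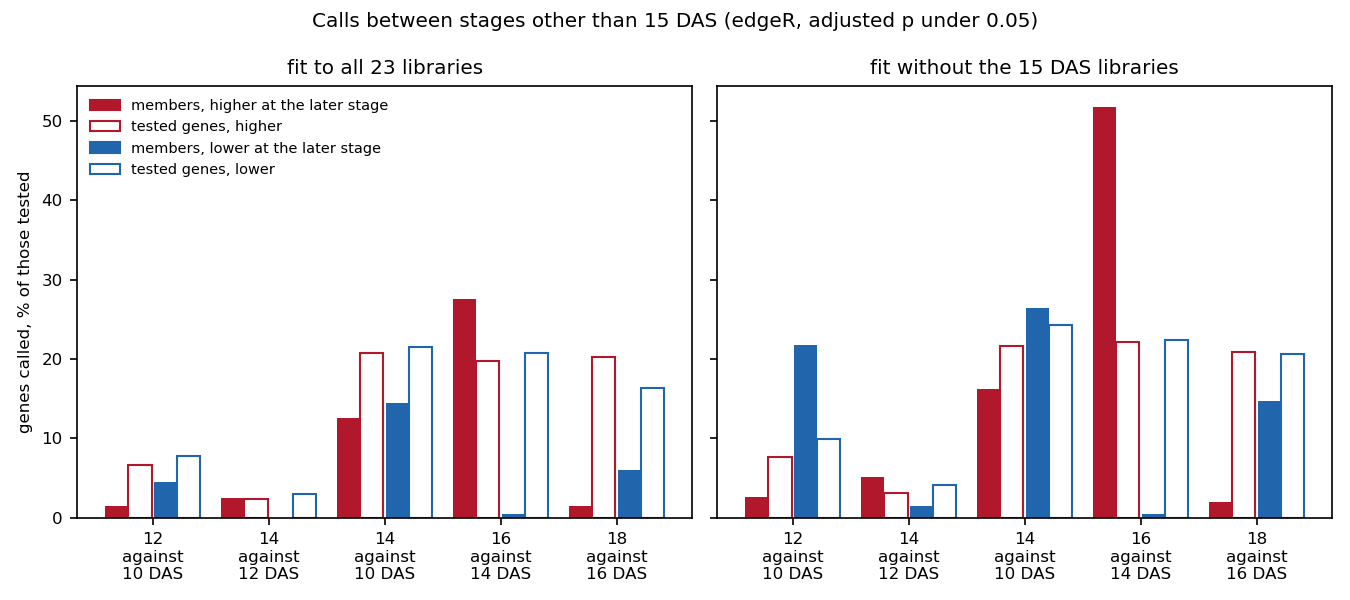
Share of members (filled bars) and of all genes tested (open bars) called higher or lower at the later stage in 5 comparisons, in percent from 0, in the fit to all 23 libraries and in the fit without the 15 DAS libraries. Members called higher at 16 against 14 DAS stand at 27.5% and 51.8% in the fits, against 19.7% and 22.1% of genes tested, while at 18 against 16 DAS both member bars lie below those of the genes tested.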

How the data were processed

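The authors ran FastQC and Salmon 0.8.1 against the primary transcripts of *S. viridis* and deposited estimated counts (expected counts) per gene, not normalised, for 23 libraries of 7630744 to 24467495 counts. CPM was computed here from column totals. Counts were rounded and tested with edgeR 4.0.16 in R 4.3.3 (quasi-likelihood F-test, TMM, expression filter, 1 mean per stage, all libraries, Benjamini-Hochberg adjusted p under 0.05), and the SE of a log2 change is its size over the square root of F. Alternatives were DESeq2 1.42.0, library size alone, other filters, a replicate block, only the stages compared, and each library left out. No comparison with 15 DAS was tested. Libraries were grouped by labelled stage. The study describes each biological replicate as a pool of primordia, and p-values measure the spread between these replicates. The genes and lists were chosen with earlier results of these data known. Named genes are the 10 of largest ratio, the 20 of largest ratio with a description, the 5 most abundant, the 6 at the threshold and the longest runs of neighbours, and those in the groups by description were added after their values were seen. Intervals for a count of 0 (3 counts) cover counting error only.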

Additional observations from a re-analysis of the deposited data

Results flagged for a closer look

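Of 425 sets of 4 libraries looked at for these genes and groups, 15 held a library farther from the other 3 than Dixon's 95% limit, where chance marks about 1 in 20. No set of 15 DAS was among them.

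At 10 DAS, the SnRK1 subunits and DUF581 proteins summed to 110 CPM in replicate 3 (others 65.9 to 71.6 CPM), and the DUF581 gene Sevir.1G219600 had 10.4 CPM there (others 5.44 to 6.22 CPM). Replicate 1 was high for Sevir.2G098500 at 4.54 CPM (others 1.03 to 1.54 CPM) and Sevir.2G225500 at 0.940 CPM (others 0.422 to 0.497 CPM), and low for Sevir.3G280800 at 7.08 CPM (others 11.9 to 12.8 CPM). Replicate 2 was high for the heat stress factor Sevir.1G181200 at 1.64 CPM (others 0.897 to 1.02 CPM) and low for Sevir.8G121700 at 6.81 CPM (others 8.58 to 8.91 CPM).

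At 14 DAS, every such library was replicate 2. The group of dark-inducible and senescence homologs, most of its sum being Sevir.3G015100, summed to 286 CPM in it (others 159 to 171 CPM). The OXS3-like genes summed to 91.3 CPM (others 47.98 to 51.8 CPM). Sevir.3G015100 had 261 CPM (others 137 to 150.3 CPM), Sevir.4G252300 had 9.72 CPM (others 2.53 to 2.87 CPM) and Sevir.9G227600 had 2.13 CPM (others 1.08 to 1.19 CPM).

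At 16 DAS, Sevir.5G438500 had 0.584 CPM in replicate 3 (others 0 to 0.0708 CPM). At 18 DAS, replicate 1 was low for the OXS3-like genes at 39.9 CPM (others 72.3 to 77.6 CPM) and high for Sevir.5G301100 at 69.7 CPM (others 33.2 to 39.0 CPM).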

How the results depend on the processing

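Counts of members called moved with the libraries and genes in the fit. At 12 against 10 DAS, 14 against 12, 14 against 10, 16 against 14 and 18 against 16 DAS, the fit to only the stages compared called 5, 28, 29, 91 and 6 higher and 49, 8, 59, 1 and 23 lower, and the fit without the 15 DAS libraries, chosen after seeing the data, 5, 10, 32, 102 and 4 higher and 43, 3, 52, 1 and 29 lower. With at least 10 counts in every library compared, 1, 3, 15, 43 and 3 were higher and 7, 0, 21, 0 and 11 lower, over fewer genes tested. DESeq2 called 9 higher at 14 against 12 DAS, and with all genes of at least 1 count 14 were lower at 12 against 10 DAS.

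With each library left out in turn, the higher counts ranged 2 to 3, 2 to 5, 20 to 27, 34 to 72 and 1 to 4 and the lower counts 2 to 15, 0 to 0, 22 to 27, 0 to 1 and 9 to 14. Members above all other stages in every 15 DAS library ranged 51 to 175, with 175 without replicate 2. The members kept by the rule ranged 141 to 190. Of 521 refits of 36 single calls, 436 stayed past the threshold, 85 did not and 0 reversed.

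In no comparison tested did every same-numbered pair of libraries deviate together at a correlation across genes of at least 0.1 (-0.37 to 0.29). At 14 against 12 DAS all such pairs were positive, but only replicate 4 passed 0.1. At 16 against 15 DAS, which was not tested, all 4 pairs did (0.11 to 0.61), though 3 of the 4 libraries of 16 DAS correlated best with another number. With the replicate block, 2, 5, 27, 53 and 4 members were higher and 8, 0, 31, 1 and 12 lower. Replicate 2 of 15 DAS has 7630744 counts, where 3 counts are 0.393 CPM.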
